A study of Homo sapiens with 9 samples.

Results

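The genes described here belong to the family named latent TGF-beta binding proteins (LTBP) or are genes that TGF-beta is known to induce. The list held 9 symbols: the latent TGF-beta binding proteins LTBP1, LTBP2 and LTBP3, and the output genes TGFBI, PMEPA1, TGM2, CCN2, KLF10 and TAGLN. They were chosen by symbol in the annotation of the array platform, through probe sets that carry a single gene symbol, and where a gene has several, the brightest over the 9 arrays was to be used. This found 8 of the 9 genes among 14232 genes tested, each with 1 such probe set. TAGLN, which encodes the actin-binding protein transgelin, had only a probe set that it shares with PCSK7 and was left out of every count. That shared probe set (3350830) read 3.01, 2.92 and 3.11 with miR-520f, 2.82, 2.89 and 2.93 in negative control cells, and 2.83, 2.88 and 2.96 in non-transfected cells. These log2 values cannot be assigned to either gene.

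All arrays came from PANC-1, an epithelial cell line established from a human pancreatic carcinoma, harvested 72 h after transfection. The 3 groups of 3 biological replicates were cells given 20 nM of a mirVana miR-520f mimic (miR-520f), cells given 20 nM of a mirVana negative control mimic (NC), and non-transfected cells that received the lipid Lipofectamine RNAiMAX without a mimic (NT). The question of the series was which genes the microRNA changes relative to both controls. The question taken up here is whether the RNA of TGF-beta output genes moved with that of TGFBR2, its type II receptor. The arrays measure RNA, so receptor protein, active ligand and SMAD phosphorylation were not measured. Values are RMA log2 intensities, so a difference of 1 is a 2-fold change, and their precision is limited by the number of arrays. Levels are compared between groups for the same probe set, because the brightness of different probe sets does not rank their genes. The data describe 1 cell line at 1 dose and 1 time, and the labels call the replicates biological but do not describe their cultures, so the p-values reflect array-to-array spread, which may be technical.

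TGF-beta is secreted as a latent complex in which its propeptide holds it inactive. LTBP1 and LTBP3 bind that propeptide and anchor the complex in the extracellular matrix, from which integrins and proteases release the active ligand. LTBP2 resembles them and associates with fibrillin microfibrils, but is not known to bind latent TGF-beta. Active ligand binds TGFBR2, which recruits the type I receptor TGFBR1, and the phosphorylated SMAD2 and SMAD3 carry the signal to the nucleus with SMAD4. In pancreatic carcinoma the pathway is known both for growth arrest and for the transition of epithelial cells to a mesenchymal state.

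The microRNA that only the miR-520f group was given is printed first, since both comparisons of that group with a control involve it. Its labels do not say which arm the mimic copies, so both mature arms are given, with 2 relatives of the 3p arm from RefSeq (GRCh38.p14). The seed, bases 2 to 8, is in capitals.
hsa-miR-520f-3p: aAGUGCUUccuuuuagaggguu
hsa-miR-520f-5p: cCUCUAAAgggaagcgcuuucu
hsa-miR-520c-3p: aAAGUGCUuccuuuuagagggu
hsa-miR-302a-3p: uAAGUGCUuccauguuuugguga
The miR-520f arms lie on the plus strand of chromosome 19, the 3p arm at chr19:53682213-53682234. Of 2370 mature human sequences in the RefSeq table, 1 has the 3p seed, miR-520f-3p itself. The same 7 letters stand at bases 3 to 9 of 11 others, among them miR-520c-3p and miR-302a-3p, whose own seeds are shared with each other and displaced by 1 base.

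TGFBR2 (probe set 2615360) read 6.69, 6.56 and 6.78 with miR-520f, 9.18, 9.24 and 9.06 in NC cells, and 8.13, 8.10 and 8.02 in NT cells. The 3 groups did not overlap, and NC cells were highest. The RNA signal of the receptor therefore fell by different amounts against the controls, with log2 fold changes of -1.40 against NT (SE 0.08, limma adjusted p = 6.63e-07) and -2.48 against NC (SE 0.08, limma adjusted p = 3.81e-08). It stood 1.08 higher in NC than in NT cells (95% interval 0.90 to 1.25, limma adjusted p = 2.66e-05). TGFBR1 read 6.94 ± 0.05 with miR-520f, 6.91 ± 0.15 in NC and 6.63 ± 0.13 in NT cells (SD, n = 3 each). It rose against NT (0.31, limma adjusted p = 0.0288, lost under 6 of 16 alternative settings, among them leaving out NT replicate 1 or 3 or any miR-520f array) and was not called against NC (0.04, 95% interval -0.17 to 0.24). The co-receptor TGFBR3, which presents ligand to TGFBR2, rose against NT and NC (1.83 and 1.51), to 5.20 ± 0.18 with miR-520f against 3.69 ± 0.16 in NC and 3.37 ± 0.06 in NT cells (SD, n = 3 each).

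LTBP2, TGFBI, PMEPA1 and TGM2 fell with miR-520f against both controls, and their miR-520f arrays lay below all 6 control arrays. CCN2 and KLF10 rose against both controls, with miR-520f arrays above all control arrays. LTBP1 was called in no comparison, and LTBP3 was lower than in NT cells only. Across all 14232 genes, 18.0% were called with the same sign against both controls, 9.37% higher and 8.61% lower, beside 2 higher and 4 lower of the 8 described here. The miR-520f arrays were apart from all control arrays for 6 of the 8 and for 25.4% of all genes (12.1% below and 13.2% above). Against NT alone 2 of the 8 rose and 5 fell, where 27.6% of all genes were called, 14.5% higher and 13.1% lower. Against NC 2 rose and 4 fell, where 28.1% of all genes were called, 15.4% higher and 12.6% lower. The median log2 fold change of the 8 was -0.71 against NT and -0.41 against NC, where the median of all genes was -0.03 in each. Both comparisons use the same miR-520f arrays, so their values are not independent, and the genes were listed with earlier results of these arrays known.

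**Figure D1:**
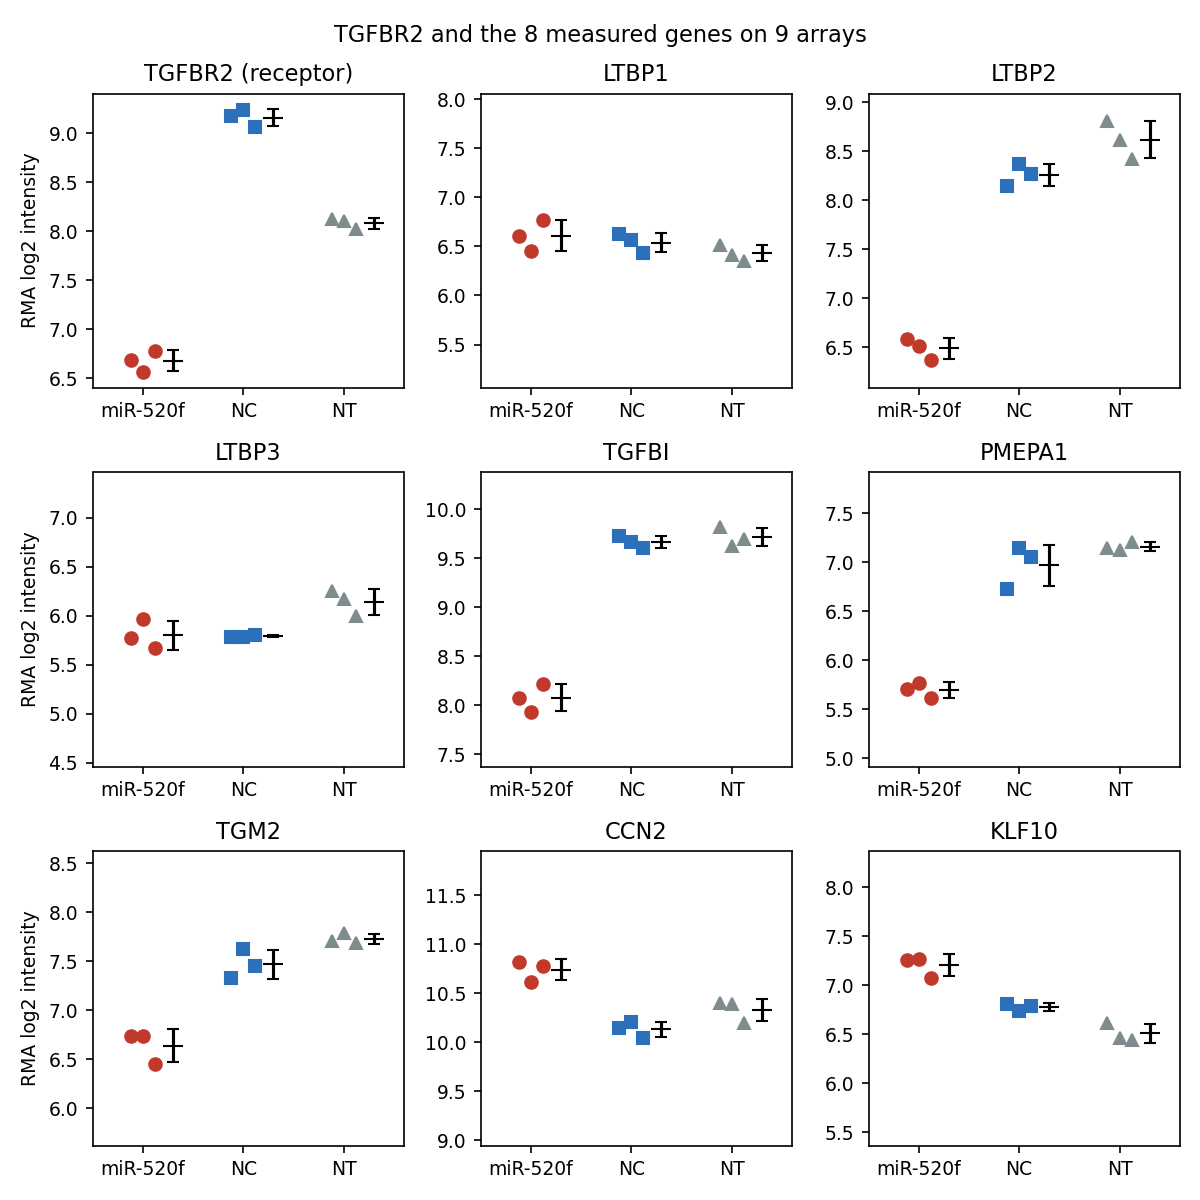
RMA log2 intensity of TGFBR2 and the 8 measured genes on each array (points), with the mean and SD of the 3 arrays of a group beside them (bars), for miR-520f, NC and NT cells. The miR-520f arrays lie below all control arrays for TGFBR2, LTBP2, TGFBI, PMEPA1 and TGM2, above them for CCN2 and KLF10, and among them for LTBP1 and LTBP3; each panel spans its own range of levels.

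Among the listed LTBP genes the largest difference was in LTBP2 (probe set 3571944), which is not known to bind latent TGF-beta. It read 6.59, 6.51 and 6.37 with miR-520f, 8.15, 8.37 and 8.27 in NC cells, and 8.81, 8.62 and 8.42 in NT cells. All 3 miR-520f arrays were at least 1.55 log2 units below the lowest control array. The log2 fold changes were -2.13 against NT (SE 0.11, limma adjusted p = 3.05e-07) and -1.77 against NC (SE 0.11, limma adjusted p = 7.48e-07), so that 22.9% of the NT intensity and 29.2% of the NC intensity remained. LTBP2 fell more than TGFBR2 did against NT (-2.13 beside -1.40) and less against NC (-1.77 beside -2.48); the difference between the genes was not tested.

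LTBP1 (probe set 2476510), which anchors latent TGF-beta to fibronectin and fibrillin, read 6.61, 6.45 and 6.77 with miR-520f, 6.63, 6.57 and 6.43 in NC cells, and 6.52, 6.41 and 6.35 in NT cells. The 3 groups overlapped. Its log2 fold change was 0.18 against NT (95% interval -0.03 to 0.39) and 0.07 against NC (95% interval -0.14 to 0.27), intervals that hold no fall of more than 0.14. LTBP3 (probe set 3377669), which also binds latent TGF-beta and is needed for normal bone and teeth, read 5.77, 5.97 and 5.67 with miR-520f, 5.78, 5.78 and 5.80 in NC cells, and 6.25, 6.17 and 6.0 in NT cells. Both transfected groups lay below the NT arrays and overlapped each other. LTBP3 was lower with miR-520f than in NT cells (-0.34, limma adjusted p = 0.018) and lower in NC than in NT cells by nearly as much (-0.35, limma adjusted p = 0.0251), while miR-520f and NC differed by 0.02 (95% interval -0.19 to 0.22). The call between NC and NT was lost without moderation and without NT replicate 1 or 2 or NC replicate 2. The call of LTBP3 with miR-520f against NT was lost under 5 of 16 alternative settings, among them leaving out NT replicate 1 or 2 or miR-520f replicate 1 or 3.

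TGFBI, an extracellular matrix protein that binds integrins and collagens and is named for its induction by TGF-beta, had the second largest fall (probe set 2829947). It read 8.08, 7.93 and 8.22 with miR-520f, 9.73, 9.67 and 9.61 in NC cells, and 9.82, 9.63 and 9.70 in NT cells. Control arrays of both kinds overlapped, and the miR-520f arrays were at least 1.40 below them. The log2 fold changes against NT and NC were of like size, -1.64 and -1.59 (SE 0.09 each; limma adjusted p = 3.99e-07 and 4.53e-07), which is 32.1% and 33.1% of the control intensity.

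PMEPA1, a membrane protein induced by TGF-beta that binds SMAD2 and SMAD3 and limits their activation, was next (probe set 3911217). It read 5.71, 5.77 and 5.62 with miR-520f, 6.73, 7.14 and 7.05 in NC cells, and 7.15, 7.12 and 7.21 in NT cells. NC replicate 1 was the lowest control array and still 0.96 above the highest miR-520f array. Log2 fold changes were -1.46 against NT and -1.27 against NC (SE 0.10 each; limma adjusted p = 1.99e-06 and 4.8e-06). TGM2, the tissue transglutaminase that crosslinks matrix proteins, read 6.74, 6.74 and 6.45 with miR-520f, 7.33, 7.63 and 7.45 in NC cells, and 7.71, 7.79 and 7.69 in NT cells (probe set 3905145). The groups did not overlap, with NC arrays in between. TGM2 fell by 1.09 on the log2 scale against NT and by 0.83 against NC (SE 0.10 each; limma adjusted p = 1.53e-05 and 0.000101), leaving 47.0% and 56.2% of the control intensity.

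CCN2, the secreted connective tissue growth factor and a common readout of both TGF-beta and the YAP coactivator, went the other way (probe set 2974330). It read 10.82, 10.61 and 10.78 with miR-520f, 10.14, 10.21 and 10.04 in NC cells, and 10.40, 10.39 and 10.20 in NT cells. Its lowest miR-520f array was 0.22 above the highest control array. The rise was 0.41 against NT and 0.61 against NC on the log2 scale (SE 0.09 each; limma adjusted p = 0.00404 and 0.000288), a fold of 1.33 and 1.52. KLF10, a zinc finger transcription factor first described as a TGF-beta-inducible early gene, read 7.26, 7.27 and 7.08 with miR-520f, 6.81, 6.74 and 6.79 in NC cells, and 6.62, 6.46 and 6.44 in NT cells (probe set 3147508). The 3 groups did not overlap, and NC cells lay between the others. KLF10 rose by 0.70 against NT and by 0.43 against NC (SE 0.08 each; limma adjusted p = 6.49e-05 and 0.00181).

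Under 16 alternative settings, which included leaving out each array, the 6 genes called against both controls kept their sign and their call in both comparisons. In bulk RNA, fewer cells that express a gene and less RNA per cell cannot be told apart.

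**Figure D2:**
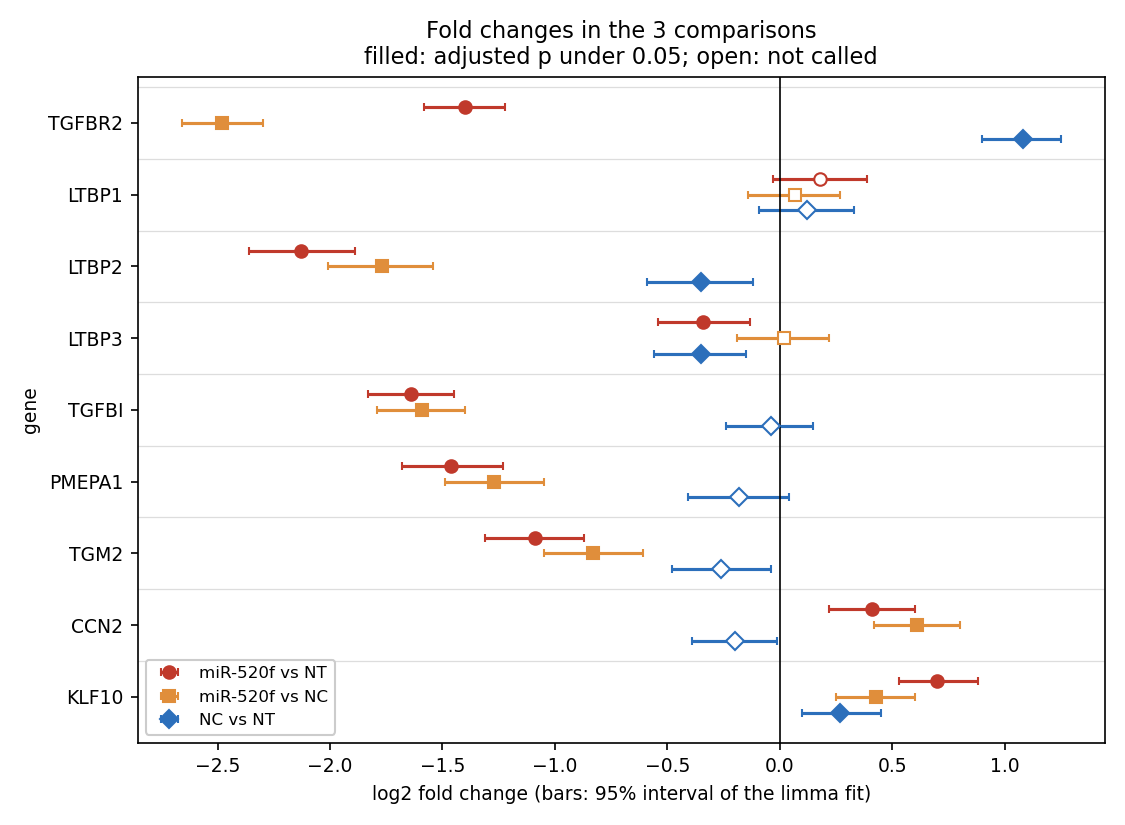
Log2 fold change of TGFBR2 and the 8 measured genes (rows) in 3 comparisons, with the 95% interval of the limma fit; filled symbols passed an adjusted p under 0.05 and open symbols did not. TGFBR2 was 1.08 higher in NC than in NT cells, while the same comparison lay between -0.35 and 0.27 for the 8 genes.

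The TGFBR2 RNA signal also differed between the controls, and the 8 genes were set beside it in that comparison, which lacks the miR-520f mimic. NC cells carry another mimic and NT cells none. A change that goes with the receptor therefore cannot be told apart from other effects of the control mimic. TGFBR2 was higher in NC than in NT cells by a fold of 2.11. In that comparison 15.3% of all genes were called, 7.0% higher and 8.28% lower, and of the 8 genes 1 was called higher and 2 lower. With arrays centred on the median the split over all genes was 1198 higher and 928 lower, beside 996 and 1178 without centring. None of the 4 genes that fell with the receptor under miR-520f was called higher in NC cells. TGFBI differed by -0.04 (95% interval -0.24 to 0.15, limma adjusted p = 0.864), PMEPA1 by -0.18 (95% interval -0.41 to 0.04) and TGM2 by -0.26 (95% interval -0.48 to -0.04, limma adjusted p = 0.122). LTBP2 was lower in NC cells (-0.35, limma adjusted p = 0.0459), a call lost under 12 of 16 alternative settings, among them leaving out any array other than NT replicate 3. CCN2 differed by -0.20 (95% interval -0.39 to -0.01, limma adjusted p = 0.168). Only KLF10 was called in the direction of the receptor (0.27, limma adjusted p = 0.0392), which was lost under 10 of 16 alternative settings, among them leaving out any array other than NT replicate 1 or miR-520f replicate 3. By group means TGFBR2 ran NC, NT, miR-520f from high to low. LTBP2, TGFBI, PMEPA1 and TGM2 ran NT, NC, miR-520f, and the difference between NT and NC was not called for TGFBI, PMEPA1 and TGM2. CCN2 ran miR-520f, NT, NC, and KLF10 ran miR-520f, NC, NT.

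By the root mean square difference over the 9 arrays, after each gene's own mean was taken away, the genes most like TGFBI were ARSJ (0.0896), DOCK5 (0.0943) and EEPD1 (0.103), of 14224 genes ranked. ARSJ, an arylsulfatase, had log2 fold changes of -1.58 and -1.52 against NT and NC. For LTBP2 the nearest were TMEM9B (0.142), IFITM1 (0.157) and TUBG1 (0.160). IFITM1, an interferon-induced membrane protein, fell by 1.95 and 1.47. For CCN2 they were the transcription factor SOX4 (0.0636), SMAD5 (0.0662) and ANKRD13C (0.0664). SMAD5, which relays BMP signals, rose by 0.38 and 0.51. After a further quantile normalization, an alternative chosen after seeing the data, 1 of the 3 genes nearest to CCN2 kept its place among the nearest 3, while those of LTBP2 and TGFBI all did. Among the 8 genes themselves, TGFBI lay closer to PMEPA1 (0.213) than to LTBP2 (0.252) or TGM2 (0.367), and PMEPA1 and TGM2 were 0.209 apart. These distances describe the arrays and were not tested.

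**Figure D3:**
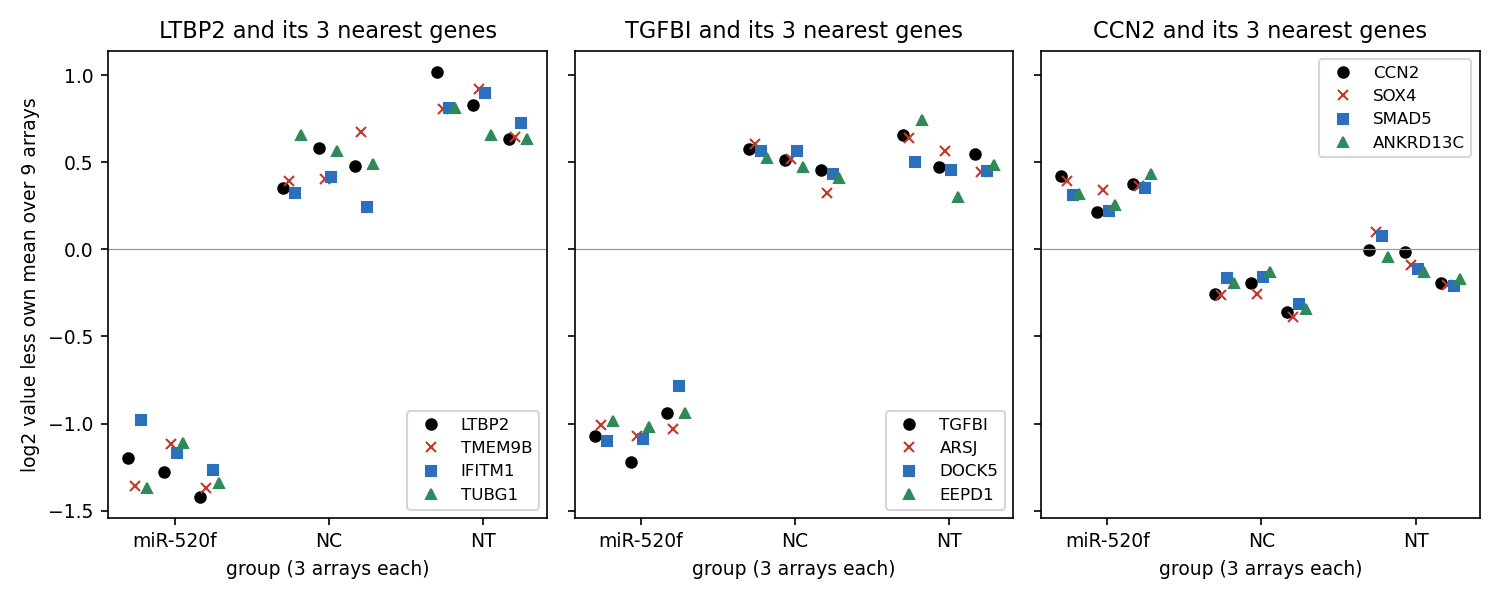
Log2 value of each array less the gene's own mean over 9 arrays, for LTBP2, TGFBI and CCN2 (black circles) and the 3 genes nearest to each, in miR-520f, NC and NT cells. By group means LTBP2 and its neighbours were lowest with miR-520f and highest in NT cells, though NC and NT arrays overlapped for TMEM9B and TUBG1. TGFBI and its neighbours were about level in both controls, and CCN2 and its neighbours were highest with miR-520f.

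Promoters were compared because LTBP2 and TGFBI fell together while CCN2 rose. The 250 bases before the RefSeq start (GRCh38.p14) are printed for these genes, which have a single window each. Capitals mark 3 motifs, searched on both strands: CAGAC, the core of the element bound by SMAD3 and SMAD4, GGCGC, a GC-rich element bound by SMAD proteins, and GGAATG, bound by the TEAD partners of YAP. Matches of GGCGC on opposite strands can overlap, and are then counted separately.
LTBP2 chr14:74612238-74612487 minus strand: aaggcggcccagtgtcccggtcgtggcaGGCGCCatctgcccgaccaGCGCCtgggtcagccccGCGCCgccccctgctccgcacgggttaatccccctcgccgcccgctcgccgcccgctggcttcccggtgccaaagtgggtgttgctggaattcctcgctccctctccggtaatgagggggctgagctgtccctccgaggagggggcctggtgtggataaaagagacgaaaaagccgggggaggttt
TGFBI chr5:136028738-136028987 plus strand: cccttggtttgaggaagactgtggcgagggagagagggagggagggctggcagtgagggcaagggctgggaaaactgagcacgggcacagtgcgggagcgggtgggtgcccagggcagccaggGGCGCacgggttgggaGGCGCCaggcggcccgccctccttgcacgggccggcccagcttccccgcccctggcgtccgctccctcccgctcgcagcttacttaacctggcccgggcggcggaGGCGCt
CCN2 chr6:131951373-131951622 minus strand: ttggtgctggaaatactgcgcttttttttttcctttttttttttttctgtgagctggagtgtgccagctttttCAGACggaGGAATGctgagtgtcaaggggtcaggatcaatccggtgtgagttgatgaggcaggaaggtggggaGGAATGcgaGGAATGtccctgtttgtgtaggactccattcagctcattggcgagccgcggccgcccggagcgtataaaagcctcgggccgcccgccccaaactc

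The CCN2 window held 1 CAGAC match, 177 bases before the start, and 3 GGAATG matches, at 169, 104 and 95 bases before it. The LTBP2 and TGFBI windows held 4 GGCGC matches each, and neither CAGAC nor GGAATG in either orientation. Of 35114 promoter windows of the same length, 38% held CAGAC, 44.5% held GGCGC and 11.9% held GGAATG in either orientation, and the shares with at least 2 matches were 8.84%, 30.8% and 0.940%. Windows were at hand for 6 of the genes, 12 windows in all because some have several starts. Of these, 9 held GGCGC, among them both windows of LTBP3 and 1 of LTBP1, genes that did not fall against both controls. The LTBP3 windows overlap and share a match, and some LTBP1 windows overlap, so the 12 windows are not all separate. CAGAC was in 6: all 3 of LTBP1, 2 of the 4 of PMEPA1, and that of CCN2. The window of CCN2 was the only 1 of the 12 with GGAATG. A match describes these letters and says nothing of binding in PANC-1 cells.

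Other genes of the pathway were counted in 6 lists that leave out the 8 genes above. The lists overlap and hold 154 measured genes in all, each counted once. They were chosen with earlier results of these arrays known and were not matched to all genes for brightness. The share of all genes is given for scale, and a higher share in a list was not tested. Among 32 measured genes of the latent complex and its activation, 4 were higher and 8 lower than in both controls (37.5% called, beside 18.0% of all genes). Separately, 5 rose and 10 fell against NT and 4 rose and 9 fell against NC. FURIN, which cleaves the TGF-beta propeptide, fell (-0.63 and -0.55 against NT and NC), as did LTBP4, the fourth binding protein (-0.60 and -0.46). The plasminogen activator PLAU fell by 1.27 and 0.62, with NC already below NT by 0.65, and the integrin chain ITGB3 fell by 0.91 and 1.18. The ligand TGFB3 rose (0.60 and 0.82), to 3.98 to 4.08 with miR-520f against 3.16 to 3.26 in NC and 3.38 to 3.46 in NT cells. MFAP2, a microfibril protein, rose (0.54 and 0.55), and the membrane protease MMP14 rose by 0.33 and 1.03, with the call against NT lost with all probe sets, without moderation, and without NT replicate 2 or 3 or any miR-520f array. The count of genes that rose was 2 with all probe sets, without moderation, and without NT replicate 2, NT replicate 3 or miR-520f replicate 3. The ligand TGFB1, named outside the rule for named genes, was lower with miR-520f than in NT cells (-0.41, lost with centred arrays, without moderation, and without NT replicate 1 or miR-520f replicate 2 or 3) and lower in NC than in NT cells (-0.60), with no call between miR-520f and NC (0.19, 95% interval -0.07 to 0.45; limma adjusted p = 0.295).

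Among 23 measured receptors and core signalling genes, 7 rose and 1, TGFBR2, fell against both controls (34.8% called). By comparison, 10 rose and 3 fell against NT, and 8 rose and 3 fell against NC. Those that rose included TGIF2, a SMAD corepressor (0.88 and 0.85), and STRAP, a receptor-associated inhibitor of the signal (0.72 and 1.04), whose call against NT was lost without moderation. SMAD3, also named outside the rule, was lower than in NT cells (-0.53, limma adjusted p = 0.000666) but not called against NC (0.15, limma adjusted p = 0.248), and it was lower in NC than in NT cells by 0.68 on the log2 scale (limma adjusted p = 0.000393). After a further quantile normalization, without dim genes, with only the 6 arrays compared, with the replicate block, and without NT replicate 1 or NC replicate 1, 2 genes of this list fell against both controls.

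Among 55 other genes that TGF-beta is known to control, 2 rose and 8 fell against both controls (18.2%, beside 18.0% of all genes). Against NT 2 rose and 13 fell, against NC 4 rose and 13 fell, and the list median was -0.05 in each, beside -0.03 for all genes. Of these genes SKIL was already counted among the core signalling genes, and LTBP4, THBS1 and MMP2, which fell, among those of the latent complex. The call of THBS1 against NC (-0.23, limma adjusted p = 0.0375) was lost under 9 of 16 alternative settings. THBS1 read 3.36 to 3.78 over all arrays. The genes that rose were the chromatin protein HMGA2 (1.30 and 1.36) and SKIL, a corepressor of SMADs that is itself induced by TGF-beta (0.57 and 0.50). The phosphatase DUSP1 (-0.89 and -0.99) and the cell cycle inhibitor CDKN1A (-0.89 and -0.83) fell. The classical targets SMAD7, JUNB and ID1 were named outside the rule. SMAD7, the inhibitory SMAD, was not called against NT (0.14) and rose against NC (0.28, limma adjusted p = 0.0182, lost without NC replicate 2 or miR-520f replicate 1 or 3) at levels of 3.44 to 3.87 on all arrays. JUNB fell against NT (-0.54) and was not called against NC (-0.19, limma adjusted p = 0.129). It was also lower in NC than in NT cells (-0.34, limma adjusted p = 0.0203, lost under 4 of 16 alternative settings). ID1 fell against NT (-0.48, lost without moderation or miR-520f replicate 3) and was not called against NC (-0.31) or between NC and NT (-0.17, limma adjusted p = 0.483). With miR-520f, ID1 was called lower than in NC cells with the replicate block, with only the 6 arrays compared, and without NT replicate 1 or 3. Without NT replicate 2 the number that fell against both controls was 5.

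CCN2 is also read by YAP and TAGLN by the serum response factor SRF, so genes of both programmes were counted. Of 21 measured YAP targets, 6 rose and 5 fell against both controls (52.4%). TGFB2, which rose, was also counted in the latent complex list. Its call against NT (0.31, limma adjusted p = 0.0378) was lost under 8 of 16 alternative settings. Against NC (0.35, limma adjusted p = 0.0191) the TGFB2 call was lost under 3. The kinase NUAK2 rose (1.95 and 1.32), while the ecto-nucleotidase NT5E (-1.70 and -1.98) and the receptor kinase AXL (-1.40 and -2.04) fell. AXL ran in the order of TGFBR2, with NC above NT by 0.64. Over the arrays it was the third nearest gene to TGFBR2 (0.234), after EXPH5 (0.167) and TENT5C (0.169). NT5E, ITGB3 and DUSP1 had the same order of group means, without a call between NC and NT. The closest relative of CCN2, CCN1, was not called against NT (-0.20), fell against NC (-0.85, limma adjusted p = 0.000337) and was higher in NC than in NT cells (0.65, limma adjusted p = 0.00463). ANKRD1, a muscle ankyrin repeat protein used as a YAP readout, was higher than in NT cells (0.52, lost without moderation and without NT replicate 3 or miR-520f replicate 1 or 3) and not called against NC (-0.25). CCN1 and ANKRD1 were named outside the rule. Without moderation, NT replicate 2 or miR-520f replicate 3, 3 YAP targets rose against both controls.

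Of 21 SRF and contractile genes, 4 rose and 4 fell against both controls (38.1%). SRF itself rose (0.43 and 0.42), as did the actin-binding caldesmon CALD1 (0.83 and 1.38). The smooth muscle calponin CNN1 fell by 1.33 and 0.97, to 4.05 to 4.09 with miR-520f against 4.92 to 5.13 in NC and 5.29 to 5.57 in NT cells, and FHL2 fell by 0.77 and 0.74. The number that rose was 2 without moderation, miR-520f replicate 1, NT replicate 2 or NT replicate 3. Of 20 measured relatives of KLF10, CCN2, TGM2 and the LTBPs, 3 fell against both controls (15.0%), the Krüppel-like factors KLF7 (-0.66 and -0.86) and KLF13 (-0.81 and -0.54) and LTBP4. In addition 1 rose after a further quantile normalization, with centred arrays, without moderation, and without NC replicate 1 or NT replicate 2.

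**Figure D4:**
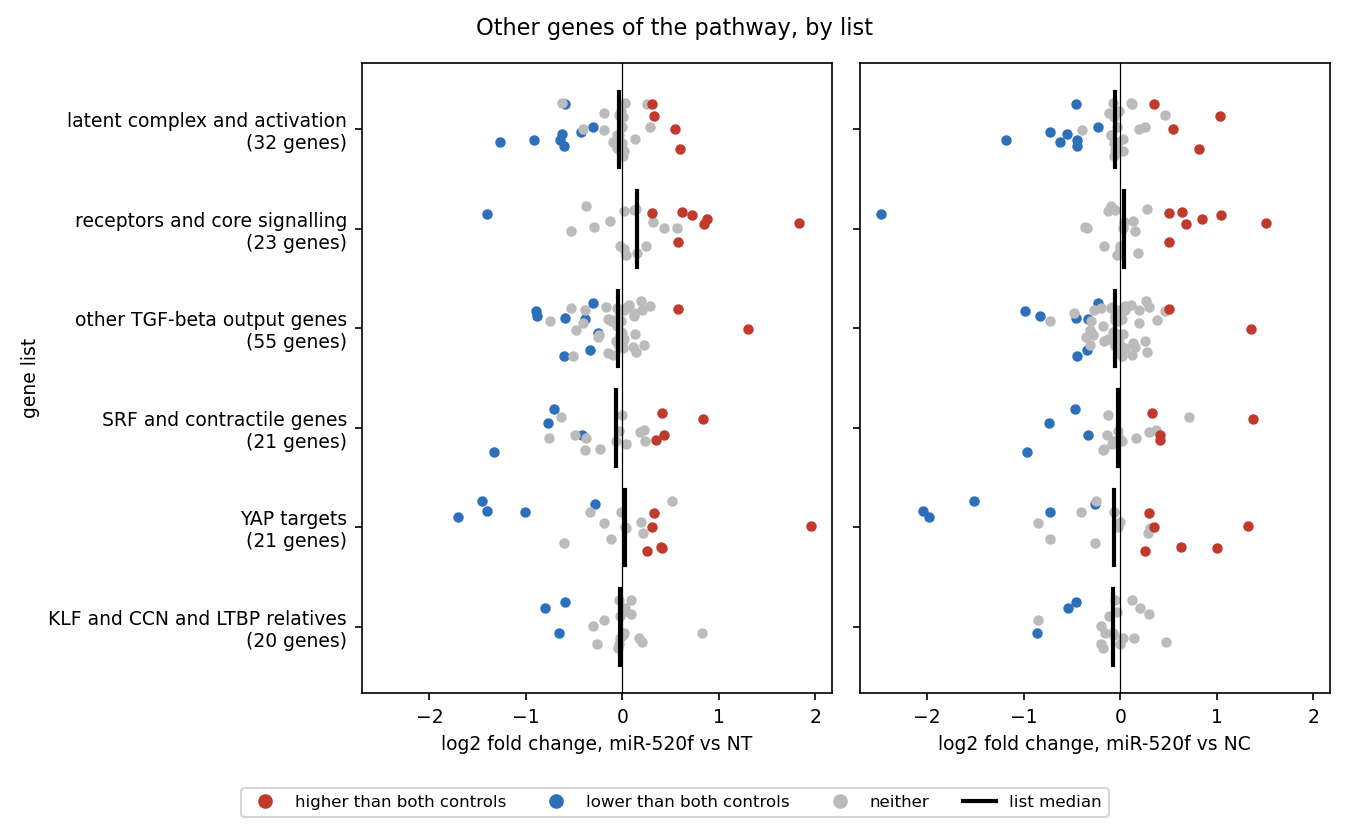
Log2 fold change of each gene of 6 lists (points; the 8 genes described above are left out) with miR-520f against NT cells (left) and against NC cells (right), coloured by whether the gene was called against both controls with the same sign; black bars are list medians. In the list of other TGF-beta output genes 2 genes rose and 8 fell, and its median was -0.05 in each comparison.

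Markers of epithelial and of other cell types are given by their levels, which carry each probe set's own brightness and do not by themselves show presence or absence of a cell type. KRT8 read 11.39, 11.34 and 11.62 on average in miR-520f, NC and NT cells, and KRT18, KRT19 and EPCAM averaged at least 7.69 in each group; KRT7 averaged 3.46 to 3.50. The 5 endothelial markers had array means of 3.08 to 3.11 with miR-520f, 3.08 to 3.20 in NC and 3.04 to 3.21 in NT cells, and the 7 measured fibroblast markers had array means of 3.80 to 3.88, 3.88 to 3.9 and 3.89 to 3.97 in the same order. Among the fibroblast markers COL1A1 averaged 7.78, 7.58 and 8.17 and was called in neither comparison with miR-520f, but was called lower than in NT cells with only the 6 arrays compared and without NC replicate 1. COL1A1 was lower in NC than in NT cells (-0.59, limma adjusted p = 0.0416), a call lost under 10 of 16 alternative settings. The 6 immune markers had array means of 3.88 to 3.98 with miR-520f, 4.06 to 4.16 in NC and 4.08 to 4.26 in NT cells. Among them CD68, a lysosomal protein, averaged 7.35, 8.24 and 8.65 and fell against both controls (-1.31 and -0.90). PTPRC averaged 2.99, 3.05 and 3.08 in miR-520f, NC and NT cells. The 3 measured acinar and endocrine markers had array means of 3.19 to 3.24, 3.25 to 3.4 and 3.13 to 3.36 in the same order, and none was called. EPCAM rose (1.57 and 1.68) and KRT19 fell (-0.75 and -0.68) against both controls. KRT18 was higher than in NT cells (0.41, limma adjusted p = 0.00879) and not called against NC (0.28, limma adjusted p = 0.0569). KRT8 and KRT7 were called in neither comparison. The part of these markers in the results above was not tested. Array medians over 22011 probe sets were between 4.22 and 4.34. NC replicate 1 deviated most from its group mean (0.169 log2 units by root mean square over all genes, against 0.0698 to 0.131 for the other arrays).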

How the data were processed

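The authors deposited 1 table of RMA log2 intensities for 22011 probe sets on 9 arrays, made with Partek 6.6 and RMA per the submitters' processing notes, which also name hg18; their settings were not given in the sources used here. RMA normalizes arrays to a common distribution and compresses differences of dim probe sets. Probe sets with a single gene symbol (14432) gave 14232 genes, by the highest mean where a gene had several. All genes were fitted with limma 3.58.1 (R 4.3.3), 1 mean per group, 6 residual degrees of freedom, with calls made where the p-value adjusted by Benjamini-Hochberg was under 0.05. The fit was tested on simulated data. The text names the 9 listed genes, 3 receptors, and up to 3 genes per direction and list called against both controls. It also names the 3 genes nearest to LTBP2, TGFBI and CCN2, and cell type markers. TGFB1, SMAD3, SMAD7, JUNB, ID1, CCN1 and ANKRD1 are exceptions, named after their values were seen. TGFB2, THBS1 and MMP2, named because lists share them, and EXPH5 and TENT5C, named as nearest to TGFBR2, are exceptions too. The members and lists were chosen with earlier results of these data known. Alternatives were a further quantile normalization, median centring, a filter on dim genes, all probe sets, no moderation, only the 6 arrays compared, a replicate block, and leaving out each array. RefSeq sequences served for motifs; KLF10 was not included there.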

Additional observations from a re-analysis of the deposited data

How the results depend on the processing

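Each of the 6 genes called against both controls, and TGFBR2, kept sign and call in both comparisons under all 16 alternatives. The counts of members higher or lower than NT or NC did not move by more than 1.5 times. Calls between NC and NT were less stable. There 2174 genes were called, 996 higher and 1178 lower, against 1287, 536 and 751 without moderation. Of the 8 members, 1 was called higher, but 0 with all probe sets, without moderation or with only the 6 arrays compared, and 0 to 1 with single arrays left out. The 2 called lower became 1 with centred arrays, all probe sets or only the 6 arrays, 0 without moderation, and 0 to 2 with single arrays left out; without 1 array at a time the numbers of genes called ran from 1394 to 2181, 614 to 1041 higher and 780 to 1140 lower, the lowest without NT replicate 2. No moderation uses fewer degrees of freedom; the cause of the other changes was not tested. Higher calls made up 56.3% of those between NC and NT with centred arrays and 45.8% without centring. Whether replicate numbers pair the arrays was not settled. Deviations from the group means of same-numbered arrays of different groups correlated at -0.0262 to 0.205 (median 0.0978, 4 of 9 pairs over 0.1). For differently numbered arrays the correlations ran from -0.437 to 0.33 (median -0.0502, 18 pairs). In both other groups at once, 3 of 9 arrays correlated best with their own number. With the replicate block 4060 genes were called against NT and 4159 against NC (3927 and 3996 without it), and between the controls 2297, with the same counts of members. Alternatives for the lists, the nearest genes and genes outside the 8 other than TGFBR2 were added after seeing the data.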
